A study of Mus musculus with 2 samples.

Results

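The genes described here are 9 genes grouped as early B lymphoid regulators: Flt3, Ikzf1, Ikzf2, Ikzf3, Tcf3, Ebf1, Foxo1, Pax5 and Bach2. They were taken by name, and each peak of the FLAG-HLF list whose centre lay inside one of them or within 100 kb of its ends was assigned to it. By this rule 11 of the 3153 peaks belonged to 8 of the 9 genes, and 8 of these 11 peaks lay inside 5 of the genes. The 9 genes are among 21887 protein-coding genes placed on the autosomes, X and Y in the gene table used.

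The peaks come from wild-type mouse LSK cells, the marrow fraction without lineage markers and with Sca-1 and c-Kit that holds stem and multipotent progenitor cells. The FLAG-HLF group received a pMX retrovirus that encodes Hlf with a 3xFLAG tag and GFP behind an internal ribosome entry site, and the GFP control group received a pMX virus with GFP alone. Both were grown for 5 days in the medium used with OP9 stroma, with SCF at 50 ng/ml, Flt3 ligand and IL-7 at 10 ng/ml each and IL-3 at 5 ng/ml, and both were precipitated with an anti-FLAG antibody. Each group had 1 library, and the only processed file analysed was the FLAG-HLF peak list, so the groups were not compared and no value has a replicate check. Whether any of these sites is also recovered from GFP control cells was not tested. The factor was supplied by a virus and precipitated by its tag. The list therefore concerns introduced, tagged HLF, and whether the cells' own HLF binds at these positions was not tested. The list gives positions with no read count or height, so its depth is unknown. It carries no expression, so the cell type could not be checked against markers.

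HLF is a PAR bZIP transcription factor that is active in stem and early progenitor cells of the blood. Early B cell development runs from progenitors with the receptor FLT3 to committed pro-B cells. Ikaros family factors and the E protein E2A prime the lymphoid program, EBF1 and FOXO1 switch on B cell genes, and PAX5 fixes the B cell fate. IL-7 and Flt3 ligand, both in the culture, are the cytokines that carry this pathway in mice.

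Peaks lay in the bodies of Flt3, Pax5, Bach2, Foxo1 and Ikzf3, and none lay at a listed start site. Flt3, Foxo1 and Ikzf3 held 2 peaks each, and Pax5 and Bach2 held 1 each. Ikzf2, Tcf3 and Ikzf1 had a single peak each, outside the gene, and Ebf1 had none within 100 kb. A peak inside or within 100 kb was thus found for 8 of the 9 regulators, in a window that caught a peak for 36.3% of all coding genes (7947 of 21887). A peak inside the gene was found for 5 of the 9 regulators, against 6.83% of all coding genes (1494 of 21887). Gene bodies of the regulators, 1.43 Mb in all, held 5.61 peaks per Mb, against 1.69 peaks per Mb over the merged bodies of all coding genes. The 9 genes were proposed with results of this list known, and no test was made over them.

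**Figure D1:**
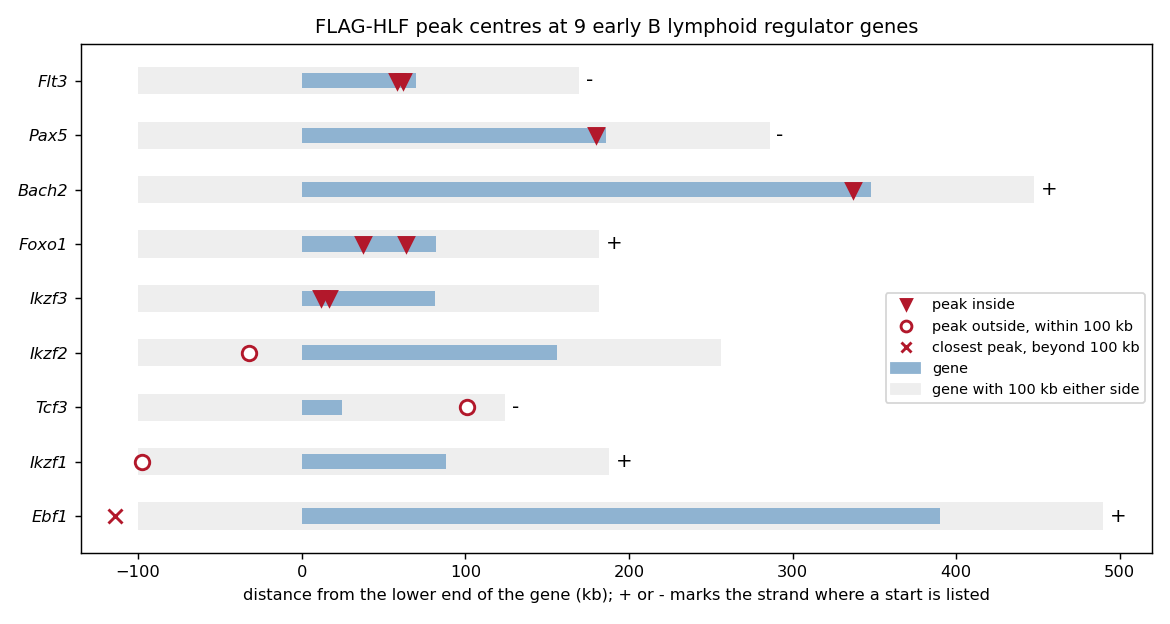
Peak centres at the 9 genes, with distance from the lower end of each gene (the end with the smaller coordinate) in kb on the horizontal axis. Blue bars are genes, grey bars add 100 kb on either side, filled triangles are the 8 peaks inside, circles the 3 outside within 100 kb, and the cross is the peak closest to Ebf1, at 113.9 kb.

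RefSeq promoter windows on GRCm38.p6, each from 250 bases before to 50 after a start site, were listed for 7 of the 9 genes, with 9 windows in all. Ikzf2 and Ikzf3 were not in that table. No peak overlapped any of the 9 windows. Such an overlap was rare in general, at 0.949% of the coding genes with a listed window (166 of 17492). The 250 bases upstream of 3 start sites are shown 5′ to 3′ because they anchor the distances given further on. Flt3 (chr5:147400490-147400739, minus strand) and Pax5 (chr4:44710695-44710944, minus strand) have the start sites nearest to a peak, and Foxo1 (chr3:52268087-52268336, plus strand) is the gene with a motif match, in capitals.
Flt3: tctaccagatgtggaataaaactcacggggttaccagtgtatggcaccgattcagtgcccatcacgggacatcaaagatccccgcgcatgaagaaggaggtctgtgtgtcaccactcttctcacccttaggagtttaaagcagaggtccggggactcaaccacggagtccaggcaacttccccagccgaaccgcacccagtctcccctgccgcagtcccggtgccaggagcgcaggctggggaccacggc
Pax5: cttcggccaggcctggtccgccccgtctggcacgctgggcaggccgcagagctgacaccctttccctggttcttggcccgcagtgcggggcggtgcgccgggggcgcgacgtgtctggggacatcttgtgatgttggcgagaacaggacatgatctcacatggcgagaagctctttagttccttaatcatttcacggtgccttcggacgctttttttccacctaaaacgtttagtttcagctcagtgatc
Foxo1: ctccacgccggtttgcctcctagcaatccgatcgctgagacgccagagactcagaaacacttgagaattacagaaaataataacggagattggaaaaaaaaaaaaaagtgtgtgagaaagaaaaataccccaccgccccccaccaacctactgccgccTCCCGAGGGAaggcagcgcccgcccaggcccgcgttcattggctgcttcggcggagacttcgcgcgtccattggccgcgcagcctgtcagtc

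The windows were searched on both strands for the PAR bZIP words TTACGTAA and TTATGTAA, for the PAR bZIP and C/EBP hybrid words TTGCGTAA and TTGCATAA, and for the C/EBP word TTGCGCAA. None of these 5 words occurred in the 9 windows. They were rare in all 21263 windows of coding genes, with matches in 0.136% for TTACGTAA, 0.894% for TTATGTAA, 0.202% for TTGCGTAA, 0.790% for TTGCATAA and 0.221% for TTGCGCAA. The EBF1 palindrome, TCCC and GGGA with 2 bases of any kind between them, matched 1 of the 9 windows, that of Foxo1, as TCCCGAGGGA. It occurred in 0.959% of all windows. A match shows only that these letters are present. The sequence under the peaks themselves was not used here, since no genome sequence was at hand.

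Flt3 encodes the receptor tyrosine kinase that marks lymphoid-primed progenitors and binds Flt3 ligand. The gene spans chromosome 5, 147330741 to 147400489, on the minus strand, so transcription starts at its upper end. Its 2 peaks were chr5:147388922-147389321 and chr5:147392648-147393047, centred 11.4 and 7.64 kb downstream of the listed start, at 16.3 and 10.96% of the gene's length from it. Their centres were 3.73 kb apart. Of the 185 coding genes with exactly 2 peaks inside, 20.5% (38 genes) had them within 5 kb, and the median spacing was 23.0 kb. The next coding gene was Pan3, whose nearer end was 33.4 kb from the closer of them, and the lncRNA gene Gm26597, which overlaps the upper end of Flt3, was 6.71 kb from it. Flt1, the VEGF receptor gene further along the chromosome, was 168.8 kb from that peak.

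Ikzf3, Ikzf2 and Ikzf1 encode Aiolos, Helios and Ikaros, zinc finger factors that bind the same DNA core. Ikaros acts from the earliest lymphoid progenitors, Aiolos rises in B cell precursors, and Helios is known mainly from T cells and stem cells. Peak positions differed among the paralogs: both peaks of Ikzf3 were inside it, while the single peaks of Ikzf2 and Ikzf1 were outside.

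The Ikzf3 peaks were chr11:98476434-98476833 and chr11:98481292-98481691, in a gene that spans 98464610 to 98546031 of chromosome 11. They were centred 12.02 and 16.9 kb inside its lower end and 4.86 kb apart. This region is rich in genes, with 9 coding genes within 100 kb of each peak, against a median of 3 over all peaks. Ikzf3 held both and had the nearest coding gene end. The next were Mien1 at 18.4 kb, Grb7 at 21.3 kb and Erbb2 at 38.9 kb, all counted from the peak nearer to the lower end. Grb7 is an adaptor protein and Erbb2 a receptor tyrosine kinase.

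The Ikzf2 peak, chr1:69499019-69499418, was centred 31.99 kb below the gene, which spans 69531207 to 69687351 of chromosome 1. No other coding gene lay within 100 kb of this peak. The next was Spag16, at 327.7 kb.

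The Ikzf1 peak, chr11:11587321-11587720, was centred 97.4 kb below the gene, which spans 11684962 to 11772930 of chromosome 11. It was the assigned peak nearest to the limit of 100 kb. The coding gene 4930512M02Rik lay between the peak and Ikzf1, with an end 1.70 kb from the peak. Ikzf1 is on the plus strand, and the peak was 98.4 kb upstream of its nearer listed start. Of all coding genes on chromosomes with a peak, 36.2% had a closer peak than Ikzf1.

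Tcf3 encodes the E2A proteins E12 and E47, bHLH factors that open the B cell program. It is the shortest of the 9 genes at 24.4 kb (chromosome 10, 80409541 to 80433976, minus strand). Its peak, chr10:80510334-80510733, was 76.6 kb beyond its upper end and inside another gene, Onecut3, which encodes a homeodomain factor. The peak lay 6.73 kb from an end of Onecut3, and Atp8b3 (9.05 kb), Rexo1 (30.4 kb), Klf16 (56.6 kb) and Abhd17a (73.1 kb) also had an end nearer to it than Tcf3. In all 8 coding genes were within 100 kb of this peak.

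Ebf1 encodes the early B cell factor that works with E2A to start B cell gene expression. It is the longest of the 9 genes at 389.997 kb (chromosome 11, 44618100 to 45008096, plus strand), and no peak lay inside it or within 100 kb. Of the 990 coding genes of 200 kb or longer, 27.3% had a peak inside. The closest peak, chr11:44504048-44504447, was 113.9 kb upstream of Ebf1, just outside the limit. It was 14.5 kb from Rnf145, which lay between it and Ebf1, and 33.5 kb from Ublcp1 on its other side. Il12b, which encodes a subunit of IL-12, was 89.6 kb from it.

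**Figure D2:**
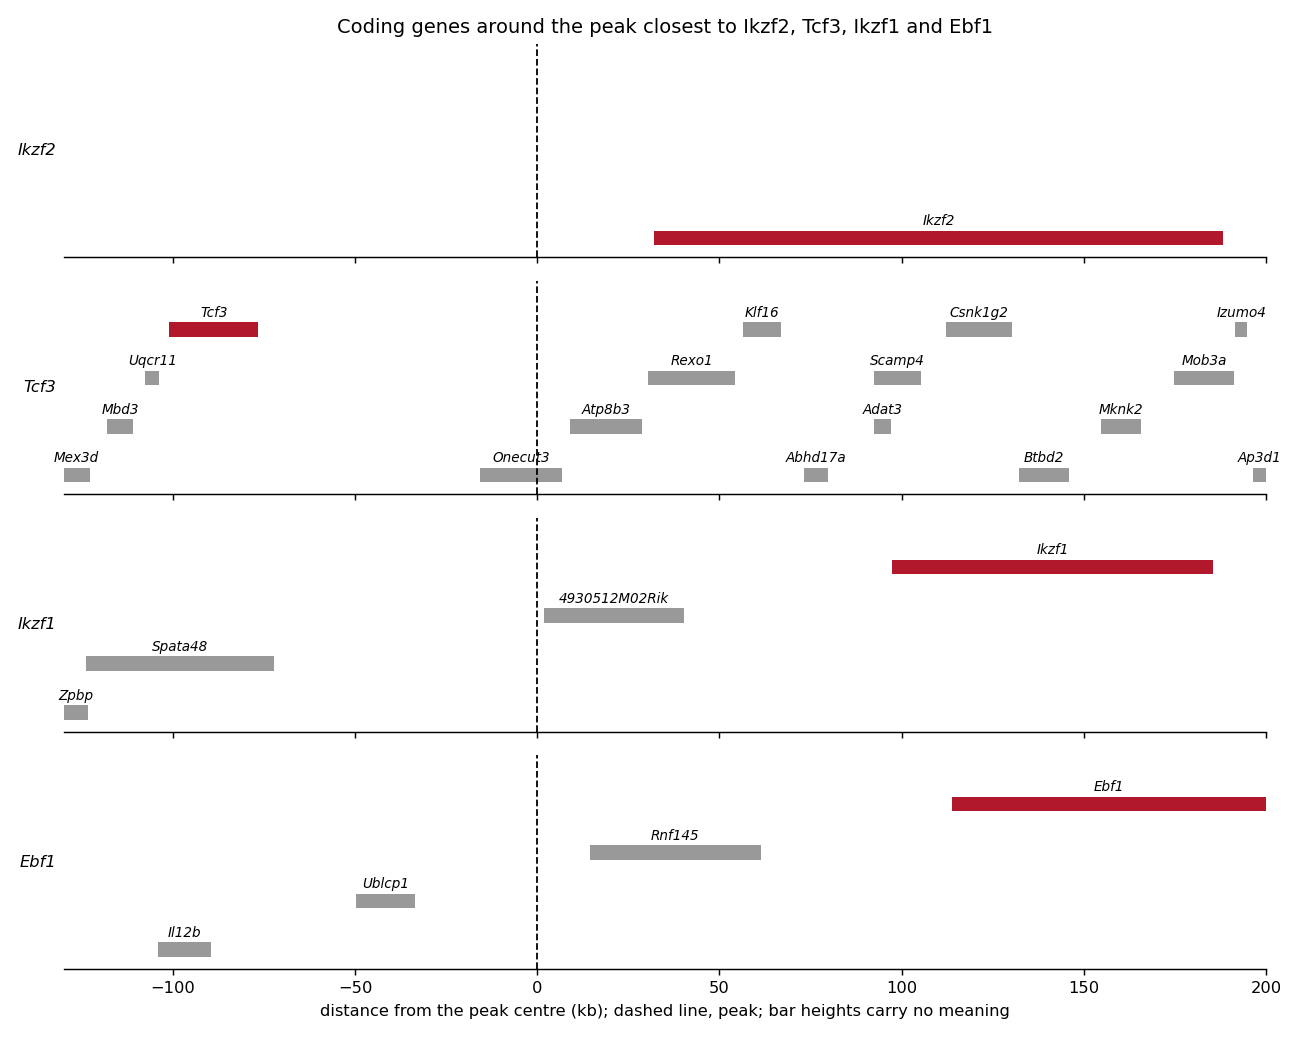
Coding genes around the peaks closest to Ikzf2, Tcf3, Ikzf1 and Ebf1, drawn by distance in kb from the peak centre (dashed line), with the regulator in red and other coding genes in grey. Ikzf2 stands alone beside its peak, the peak assigned to Tcf3 sits inside Onecut3, and 4930512M02Rik and Rnf145 lie between the peak and Ikzf1 or Ebf1. Bars are drawn to the edges of the panel.

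Foxo1 encodes a forkhead factor that acts with EBF1 and turns on Il7r and the Rag genes in B cell precursors. Its 2 peaks, chr3:52305591-52305990 and chr3:52331769-52332168, lay inside a gene of 81.8 kb (chromosome 3, 52268337 to 52350109, plus strand). They were 37.5 and 63.6 kb downstream of the start site and 26.2 kb apart. No other coding gene was within 100 kb of either peak. The next, Maml3, was 200.5 kb from the nearer of them.

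Pax5 encodes the paired domain factor of B cell commitment. Its peak, chr4:44704289-44704688, was 6.21 kb downstream of the start site in a gene of 185.9 kb (chromosome 4, 44524748 to 44710694, minus strand), at 3.34% of the gene's length from its start. The same peak lay inside the lncRNA gene 5730488B01Rik (44702800 to 44705110), 0.622 kb from an end of it. Zcchc7, the next coding gene, was 52.1 kb away.

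Bach2 encodes a bZIP repressor that holds off plasma cell fate and favors B over myeloid fate in progenitors. Its peak, chr4:32575301-32575700, was 10.6 kb from the upper end, at 96.9% of the length of a gene of 347.7 kb (chromosome 4, 32238413 to 32586109). Bach2 is on the plus strand, so its transcription ends there. The peak was 158.1 kb downstream of the only listed start site, at 32417435, which lies inside the gene. From the gene's lower end it was 337.1 kb. The lncRNA gene Bach2os was 3.84 kb away, and the coding gene Gja10, a connexin gene, 25.4 kb.

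The peaks inside the genes thus differed in where they lay along the gene. For 4 of the 5 genes with a peak inside, the table gives a direction, and these held 6 peaks. The 3 of Flt3 and Pax5 were in the first 20% of the gene, those of Foxo1 at 45.8 and 77.8% of its length, and that of Bach2 in the last 20%. Over all 1402 pairs of a peak and an oriented coding gene that held it, 30.6% were in the first 20% of the gene and 12.8% in the last 20%. The 6 distances to the nearest listed start ran from 6.21 to 158.1 kb, with a median of 24.4 kb, against a median of 17.4 kb over the 1402 pairs. The longest was that of Bach2, whose listed start lies inside the gene and not at its lower end. None of the 6 was within 1 kb of a start, and 12.5% of the pairs were.

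Longer genes held peaks more often, and the regulators are long, so the counts were also read by gene length. Among genes of 50 to 100 kb, Flt3, Foxo1 and Ikzf3 of 4 regulators held a peak, each of them 2, and Ikzf1 held none. In that class 12.8% of coding genes held a peak (321 of 2516), and 2.03% held 2 or more (51 genes). Among genes of 100 to 200 kb Pax5 held a peak and Ikzf2 did not, where 19.2% of the class did (276 of 1439). Among genes of 200 kb or longer Bach2 held a peak and Ebf1 did not. Tcf3, in the class under 50 kb, held none, where 3.70% of the class did. In the wider window the length classes differed less, with shares of 34.9, 41.4, 42.3 and 39.1% of coding genes from the shortest class to the longest. Over all lengths 3 of the 9 regulators held 2 or more peaks, against 1.02% of all coding genes (224 genes). Chromatin accessibility and expression in these cells were not matched, and their part in these counts was not tested.

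**Figure D3:**
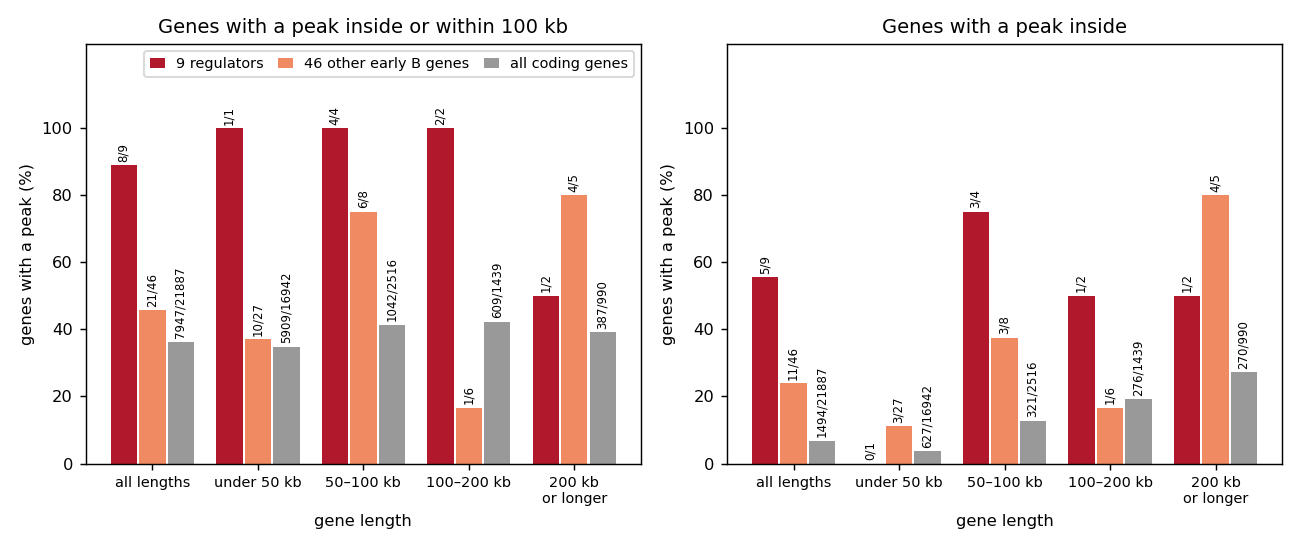
Percent of genes with a peak inside or within 100 kb of the ends (left) and with a peak inside (right), by gene length, for the 9 regulators, 46 other early B genes and all coding genes, with counts above the bars. In the class of 50 to 100 kb, 3 of 4 regulators held a peak, against 321 of 2516 coding genes; single classes hold 1 to 4 regulators.

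A list of 46 other genes, labelled other early B genes in the figures, was read in the same way. It holds 13 paralogs of the 9 regulators, listed by relation and not by a role in the pathway. The 33 others were listed for early B cell development, though some, such as Bcl6, are known from later B cells. Of the 46 genes, 21 had a peak inside or within 100 kb, 45.7% of the list, and 11 held one. For all coding genes the shares were 36.3% and 6.83%. By length class from shortest to longest, 3 of 27, 3 of 8, 1 of 6 and 4 of 5 list genes held one. The shares of coding genes holding a peak in these classes were 3.70, 12.8, 19.2 and 27.3%. Counts in the window were 10 of 27, 6 of 8, 1 of 6 and 4 of 5. Window shares of coding genes were 34.9, 41.4, 42.3 and 39.1%. The list was written with earlier results of these data known. Bodies of the 46 genes held 3.56 peaks per Mb. By part, 5 of the 13 paralogs had a peak in the window and 3 held one, and 16 of the 33 other genes had a peak in the window and 8 held one.

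Among the paralogs, Bach1 held a peak 1.10 kb from an end and had another 17.5 kb outside, so both BACH genes held a peak. Foxo3 and Tcf12, an E protein gene like Tcf3, each held 1, at 31.3 and 30.6 kb from an end. Foxo6 and Kit each had 1 outside, at 26.1 and 74.3 kb. Kit encodes the receptor for SCF and is, like Flt3, a class III receptor tyrosine kinase gene. Ikzf4, Ikzf5, Ebf2, Ebf3, Ebf4, Foxo4, Tcf4 and Csf1r had none within 100 kb. Among the Ebf genes the closest peak was at 113.9 kb for Ebf1, 382.5 kb for Ebf2, 892.1 kb for Ebf3 and 401.7 kb for Ebf4, against a median of 180.6 kb over all coding genes.

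Outside the paralogs the most peaks were at Syk, a kinase of pre-B and B cell receptor signalling, with 4 in the window and 1 of these inside. The share of all coding genes with 2 or more peaks in the window was not computed, so such counts have no background here. Spi1, which encodes PU.1, a factor of myeloid and early B cells, had 3, of which 1 was inside. Runx1 and Pou2f2, which encodes OCT2, held 2 each. Spib, which encodes a relative of PU.1, had 2 at 17.0 and 91.8 kb, both outside. Bcl6, which encodes a transcriptional repressor active in germinal centre B cells, had 2 at 74.7 and 87.8 kb, also outside. Blnk, an adaptor of the pre-B cell receptor, had 1 peak 0.099 kb beyond its end, and the same peak was counted for Dntt, the terminal transferase gene, at 34.96 kb. Cd79b, which encodes a signalling chain of the B cell receptor, and Rag1, a recombinase gene, had 1 each in the window, at 72.9 and 83.5 kb outside, and Cd79a, Igll1, Vpreb1, Il7r and Btk had none within 100 kb. Rag2, next to Rag1, fell just outside the limit, at 100.5 kb from the peak counted for Rag1. The genes Myb, Erg, Mef2c and Foxp1, which encode transcription factors, held 1 each, and Prdm1 had 1 outside. Irf4, Irf8, Ets1, Lef1, Pou2f1, Pou2af1, Bcl11a, Id2, Id3, Gfi1 and Sox4, also genes of transcriptional control, had none within 100 kb.

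The distance to the closest peak summarises the same positions without a limit. It was 0 for 5 regulators, 31.99 kb for Ikzf2, 76.6 kb for Tcf3, 97.4 kb for Ikzf1 and 113.9 kb for Ebf1. The median over 21631 coding genes on chromosomes with a peak was 180.6 kb, and the median over the 46 other early B genes was 122.6 kb. Of the 21631 coding genes, 39.4% had a closer peak than Ebf1, a long gene with Rnf145 between it and its closest peak. Of coding genes of 200 kb or longer, 39.1% had a peak inside or within 100 kb. Gene length was not matched in these distances. Between Foxo1, Flt3, Ikzf3, Pax5 and Bach2 the list gives no order, since it holds no peak heights.

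**Figure D4:**
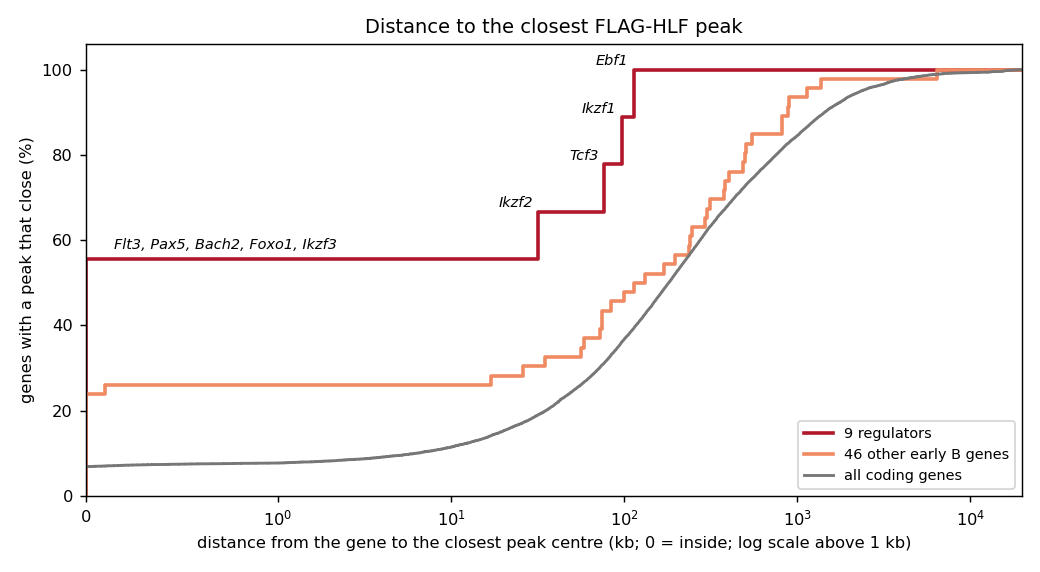
Cumulative percent of genes (vertical axis) with a peak centre within the distance on the horizontal axis (kb, log scale above 1 kb; 0 means inside), for the 9 regulators, 46 other early B genes and all coding genes. The curve of the regulators starts with 5 genes at 0 and reaches the last, Ebf1, at 113.9 kb. The median for all coding genes, not matched for length, is 180.6 kb.

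The 11 peaks were spread along the file, whose line order is not explained, from line 373 (Pax5) to line 3008 (Ikzf2), with a median of line 2037. The first 1576 lines held 4 of them, and the later lines 7.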

How the data were processed

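Chromatin from LSK cells with a FLAG-HLF or a GFP control virus was precipitated with an anti-FLAG antibody, 1 library per group. Cells were crosslinked with 1% formaldehyde and sheared in 4 cycles, per the labels' protocols. MACS2, Bowtie2 and bedtools appear, with mm10 as build, per the submitters' processing notes. How peaks were thresholded, and against what background, is not stated there. The authors deposited 3153 intervals as positions in bases, each 400 bases wide, with no score. A GFP control list was not analysed here.

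Coordinates are given from 1. The peak centre was the deposited start plus 200 bases. Genes, gene bounds and promoters came from RefSeq tables of GRCm38.p6, the same build. All 9 symbols and all 46 list symbols were found. Exons were not used. The counting was tested on simulated peaks, and no statistical test was made. All 9 members, the genes that hold their peaks or lie nearest, and up to 8 list genes with the most peaks were to be named; other list genes were named after their values were seen, and the values of 1 list gene are not reported here. Members and lists were chosen with earlier results of these data known. Python 3.11.15, numpy 2.4.6, pandas 2.3.3 and matplotlib 3.10.9 were used.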

Additional observations from a re-analysis of the deposited data

How the results depend on the processing

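Of 25 alternative counts for 4 results, 18 were within 1.5 times the value reported. The number of regulators with a peak was 8 at a limit of 100 kb, against 36.3% of all coding genes. It was 6 at 50 kb (without Tcf3 and Ikzf1), against 24.2%, and 9 at 200 kb, where Ebf1 entered, against 51.8%. At 20 kb, at 10 kb and inside the gene it was 5 each, against 15.1, 11.4 and 6.83% of coding genes, so Ikzf2, Tcf3 and Ikzf1 depend on the width of the window. It was 6 when a peak counted only for the gene that held it or had the nearest end. The share of all coding genes under this rule was not computed, so this count has no background beside it. The 8 peaks inside were also 8 when any base of the interval counted. Of the 46 other genes 21 had a peak at 100 kb, 13 at 20 kb, 12 at 10 kb and 11 inside, and 12 when noncoding genes entered the assignment by nearest end. For that last rule, too, no share of all coding genes was computed. The list has no score, so a stricter peak threshold could not be tried. No paired analysis was possible because each group has 1 library and 1 list was analysed. Depth is unknown, so a gene without a peak in this list cannot be called unbound.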

Other observations

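At a limit of 200 kb, 3 more peaks entered, and each was nearest to another coding gene. They were the peak closest to Ebf1, a peak 127.9 kb from Tcf3 and inside Rexo1, and a peak 182.2 kb from Bach2 and inside Mdn1.

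The upstream sequences of the listed start sites differed in composition. The 250 bases before one Ikzf1 start had 82.0% G and C and 44 CpG pairs, and those before its other start had 47.6% and 1. The other listed starts of the 9 genes had 40.0 to 59.6% and 7 to 20 CpG pairs. Over 21263 windows of coding genes the medians were 55.6% and 10 CpG pairs. Of these windows 29.0% had 3 or fewer CpG pairs, and 7.66% had 30 or more.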
